A study of Mus musculus with 6 samples.

Results

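GABA is the main inhibitory transmitter of the cerebral cortex, and the genes that make, move and sense it, together with the genes that mark the classes of cortical interneurons, were examined in primary somatosensory (S1) cortex with and without whisker stimulation. The 33 genes were chosen by name. They comprise 12 genes of receptor subunits and receptor anchoring, 6 of GABA synthesis, transport and chloride handling, and 15 markers of interneurons, and 32 of the 33 were among the 14824 genes of the deposited table. The exception was Dlx6os1. All 32 passed the filter on low counts.

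Bulk RNA-seq was done on S1 cortex of WT mice of the C57B6 strain at postnatal day 21, with 3 whisker-stimulated libraries (WS) and 3 libraries without stimulation (NS, titled NW control and with treatment given as none). Brushing of the right whiskers was repeated daily before tissue was taken, 90 minutes after the last session, and the study describes the barrel cortex of the unstimulated side as the control, so that NS need not stand for mice that were never stimulated. The RNA-seq is described as coming from 3 male mice, and the labels do not say which NS and WS libraries share a mouse. RNA was accepted above an integrity number of 2. Each library held between 15660395 and 17276168 counts over the listed genes.

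In the cortex GABA is made from glutamate by the glutamate decarboxylases, loaded into vesicles, and sensed by GABA-A receptors, which are chloride channels built from varying subunits, and by GABA-B receptors, which act through G proteins. Whether GABA inhibits depends on the chloride gradient, which the cotransporters KCC2 (Slc12a5) and NKCC1 (Slc12a2) set in opposite directions as the brain matures. Cortical interneurons fall into parvalbumin (Pvalb), somatostatin (Sst) and vasoactive intestinal peptide (Vip) classes and a Lamp5 or Ndnf class, and sensory activity is known to shape them during the weeks after birth. In bulk tissue fewer cells of a type and less RNA per cell cannot be told apart.

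Several interneuron peptides are known for promoters that respond to cAMP and calcium through the cAMP response element, and these short promoter stretches are shown because Sst was the most abundant of the 32 genes per kilobase. RefSeq promoters of GRCm38.p6, taken here as the 250 bases before the start site, matched 26 of the 32 genes by symbol. The full palindrome TGACGTCA was in the promoter of 1 of the 26, Sst, against 1.55% of all 32851 promoters. Its core TGACG, searched on both strands and contained in the palindrome, was in 5 of the 26 (Cck, Gad2, Sox6, Sst and Vip), against 17.8% of all promoters. Windows of 30 bases are written 5′ to 3′ on the strand of the gene with the match in capitals, at chr16:23890874-23890903 (minus) for Sst, chr10:5639127-5639156 (plus) for Vip, chr9:121495724-121495753 (minus) for Cck and chr2:22622282-22622311 (plus) for Gad2. The matches start 48, 79, 47 and 33 bases before the RefSeq start site. The GENCODE M21 annotation starts Sst at 23890958 and Gad2 at 22622205, further upstream, so the Sst and Gad2 windows lie inside the genes as annotated there.
Sst: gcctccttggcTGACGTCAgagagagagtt
Vip: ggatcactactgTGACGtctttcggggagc
Cck: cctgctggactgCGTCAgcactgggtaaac
Gad2: ccatttcccttcCGTCActctctcatctcc
Sst holds the whole element, Vip the core without the full palindrome, and Cck and Gad2 the core on the opposite strand. A match is a description of the letters and not a site of binding.

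With whisker stimulation 0 of the 32 genes were called higher and 0 called lower when called at a log2 fold change beyond 1 with an adjusted p under 0.05 (quasi-likelihood test of edgeR, Benjamini-Hochberg over 13747 genes), where 0.0291% of all genes were called higher and 0% lower. The lowest adjusted p among them was 0.9998, and it was 0.9999 both with a block on replicate number and with DESeq2. At an unadjusted p under 0.05, 1 of the 32 was higher, Slc32a1, against 0.866% of all genes, and 0 were lower, against 0.327%. In none of the 32 did every WS library lie above every NS library, against 3.11% of all genes, or below, against 3.16%. A count of 1 in 32 is not a result about these genes, and DESeq2 also gave 1 higher and 0 lower.

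The differences were of the size seen over the whole transcriptome. The median absolute log2 fold change of the 32 genes was 0.07, and it was 0.07 over all genes tested. The median standard error (SE) was 0.10. Over all 32 genes the 95% intervals of the change ran from -29.4% (Gabra2, whose interval reached 32.2%) to 37.9% (Slc12a2). The narrowest intervals belonged to abundant, steady genes, such as Gabbr1, which lay between -11.0% and 11.7%. No change of 1 log2 unit in any of these genes was within its interval.

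**Figure D1:**
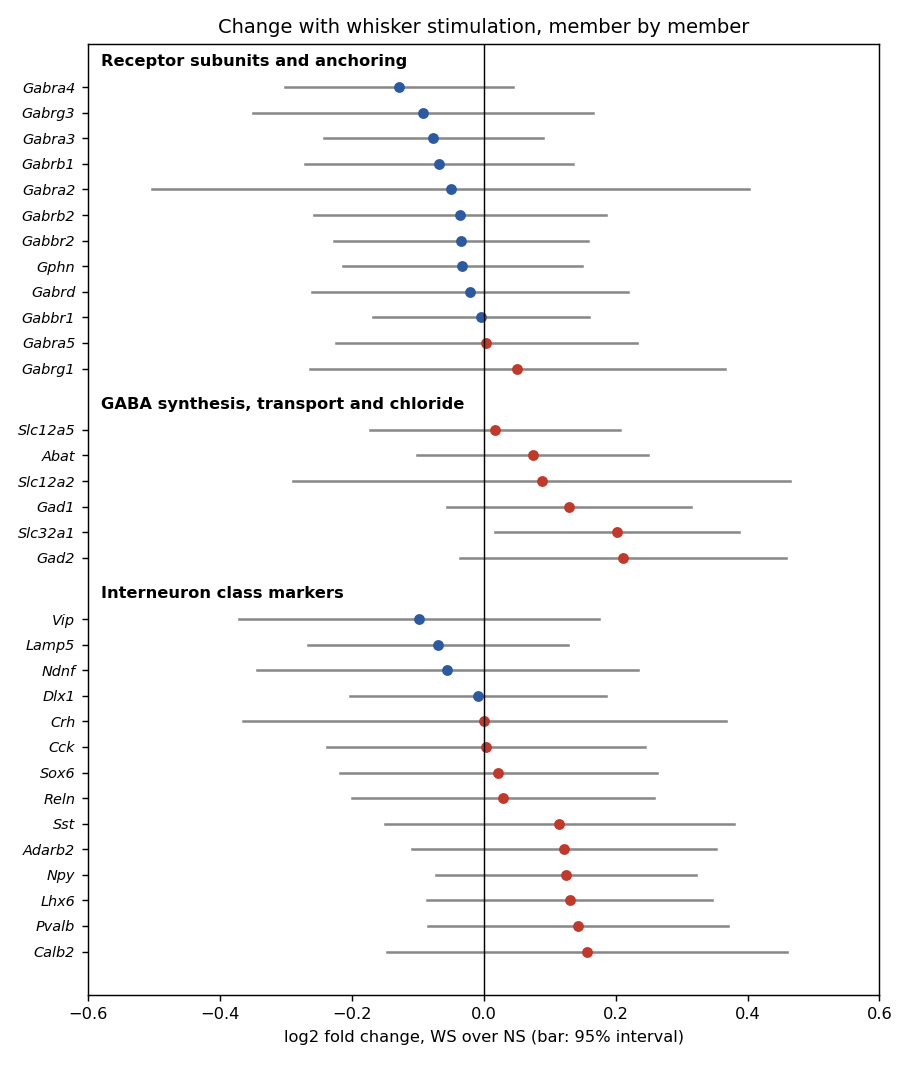
Log2 fold change of WS over NS (x axis) for each of the 32 genes (y axis), in 3 role groups; points are edgeR estimates, red above 0 and blue below, and bars are 95% intervals. Only the bar of Slc32a1 stays clear of 0, and all 6 genes of synthesis, transport and chloride lie to the right.

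The genes leaned in different directions by role. All 6 genes of synthesis, transport and chloride were above 0 with a median log2 fold change of 0.11, 10 of 14 interneuron markers were above 0 with a median of 0.03, and 10 of 12 receptor genes were below 0 with a median of -0.04. Over all genes tested, 53% were above 0 and the median was 0.0074. With upper quartile or DESeq2 scaling the median of all genes was 0.0101 and 0.0057. With 1 library left out the median ran from 0.0744 (without WS replicate 2) to 0.1714 (without WS replicate 1) for synthesis, transport and chloride. It ran from -0.0035 (without WS replicate 1) to 0.083 (without WS replicate 3) for the interneuron markers, and from -0.0935 (without NS replicate 3) to -0.0033 (without NS replicate 2) for the receptor genes. These counts carry no test, and apart from Slc32a1 each gene's own interval included 0. A list wholly above 0 was not particular to these roles. It was also seen for 9 of 9 astrocyte, 10 of 10 oligodendrocyte, 10 of 10 endothelial and 10 of 10 striatal markers, against 4 of 10 excitatory and 2 of 7 choroid plexus markers.

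Slc32a1 encodes the vesicular GABA transporter, which fills synaptic vesicles with GABA, and it is used by every cortical GABAergic cell. It had 116, 122.9 and 118 TMM-normalized CPM (each count scaled to the size of its library, with edgeR's TMM factors) in NS replicates 1, 2 and 3, and 149, 139.7 and 122.5 in WS replicates 1, 2 and 3. The NS libraries were close together, WS replicates 1 and 2 were above all of them, and WS replicate 3 was just under NS replicate 2. The means were 119 ± 3.40 in NS against 137 ± 13.3 for WS (SD over the 3 libraries), a log2 fold change of 0.20 (SE 0.08) or a value 15.04% higher, with a 95% interval from 1.22% to 30.7%. In each of the 3 same-numbered pairs of libraries the WS value was the higher. The unadjusted p was 0.0345 and the adjusted p 0.9998 (edgeR, Benjamini-Hochberg), so the gene was not called. An exact permutation test over the 6 libraries gave a two-sided p of 0.20, where 0.10 is the smallest that 3 against 3 allow. Blocking on the replicate number gave an unadjusted p of 0.0548 in edgeR. With 1 library left out it was under 0.05 only without WS replicate 3 (0.00274), while without NS replicates 1, 2 and 3 and WS replicates 1 and 2 it was 0.108, 0.0537, 0.0838, 0.0997 and 0.115. Another annotated gene, Gm14205, lies on the opposite strand of Slc32a1 (GRCm38 chromosome 2, 158610767 to 158615748, plus strand), and the counting is not stated to use strand.

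Gad1 and Gad2 encode GAD67 and GAD65, the enzymes that make GABA, the first held responsible for most basal GABA and the second tied to synaptic terminals. Gad1 had 335, 338 and 311 CPM in NS and 322, 386 and 369 in WS. WS replicate 1 lay inside the NS range and WS replicates 2 and 3 above it. The log2 fold change was 0.13 (SE 0.08, 95% interval -0.06 to 0.31). Gad2 had 150.4, 160.3 and 138 CPM in NS and 142, 178 and 199 in WS. Again WS replicate 1 sat among the NS libraries while WS replicates 2 and 3 were above all 3. Its log2 fold change of 0.21 (SE 0.11, 95% interval -0.04 to 0.46) was the highest point estimate of the 32 genes, with an unadjusted p of 0.0864 in edgeR and an exact permutation p of 0.30 over the 6 libraries. Without WS replicate 1 the log2 fold change of Gad2 was 0.34 with an unadjusted p of 0.00195 from edgeR, at an adjusted p of 1, and without WS replicate 3 it was 0.10 with an unadjusted p of 0.330. The WS libraries thus did not place Slc32a1 and the decarboxylases in the same order, since WS replicate 1 was the highest for Slc32a1 and the lowest of the 3 for Gad1 and Gad2. The Gad1 to Gad2 ratio per kilobase was 1.71, 1.62 and 1.74 in NS and 1.74, 1.67 and 1.43 in WS, with WS replicate 3 below the other 5.

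Abat encodes GABA transaminase, the enzyme that breaks GABA down in neurons and astrocytes. It had 301, 314 and 283 CPM in NS and 296, 309 and 341 in WS, with overlapping groups and a log2 fold change of 0.07 (SE 0.08).

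Slc12a5, the neuronal KCC2 that extrudes chloride, was the steadiest of the abundant genes in NS, with 667, 652 and 645 CPM, and had 743, 612 and 632 in WS. WS replicate 1 was the highest and WS replicate 2 the lowest of all 6 libraries, so the WS values spanned the NS values on both sides. The log2 fold change was 0.02 (SE 0.09, 95% interval -0.17 to 0.21). Slc12a2, the NKCC1 that takes chloride in and is also found in glia and vessels, had 71.1, 96.4 and 92.7 CPM in NS and 65.1, 100.1 and 111 in WS. Replicate 1 was the lowest in both groups. Its log2 fold change of 0.09 (SE 0.17) came with one of the widest intervals, from -0.29 to 0.46. Without WS replicate 1 it was 0.29 and passed an unadjusted p under 0.05 in edgeR, while without WS replicate 3 it was -0.07 and without NS replicate 1 it was -0.04, so its sign turned on the library left out. With all 6 libraries and the block on replicate number the log2 fold change of Slc12a2 was 0.07 (unadjusted p of 0.516 in edgeR).

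Per kilobase of exon, Slc12a5 stood above Slc12a2 in every library. The ratio was 13.7, 9.92 and 10.2 in NS and 16.7, 8.96 and 8.32 in WS, or 11.3 ± 2.13 against 11.3 ± 4.69 (SD over the 3 libraries). Both replicate 1 libraries had the highest ratio, and the group means did not separate.

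**Figure D2:**
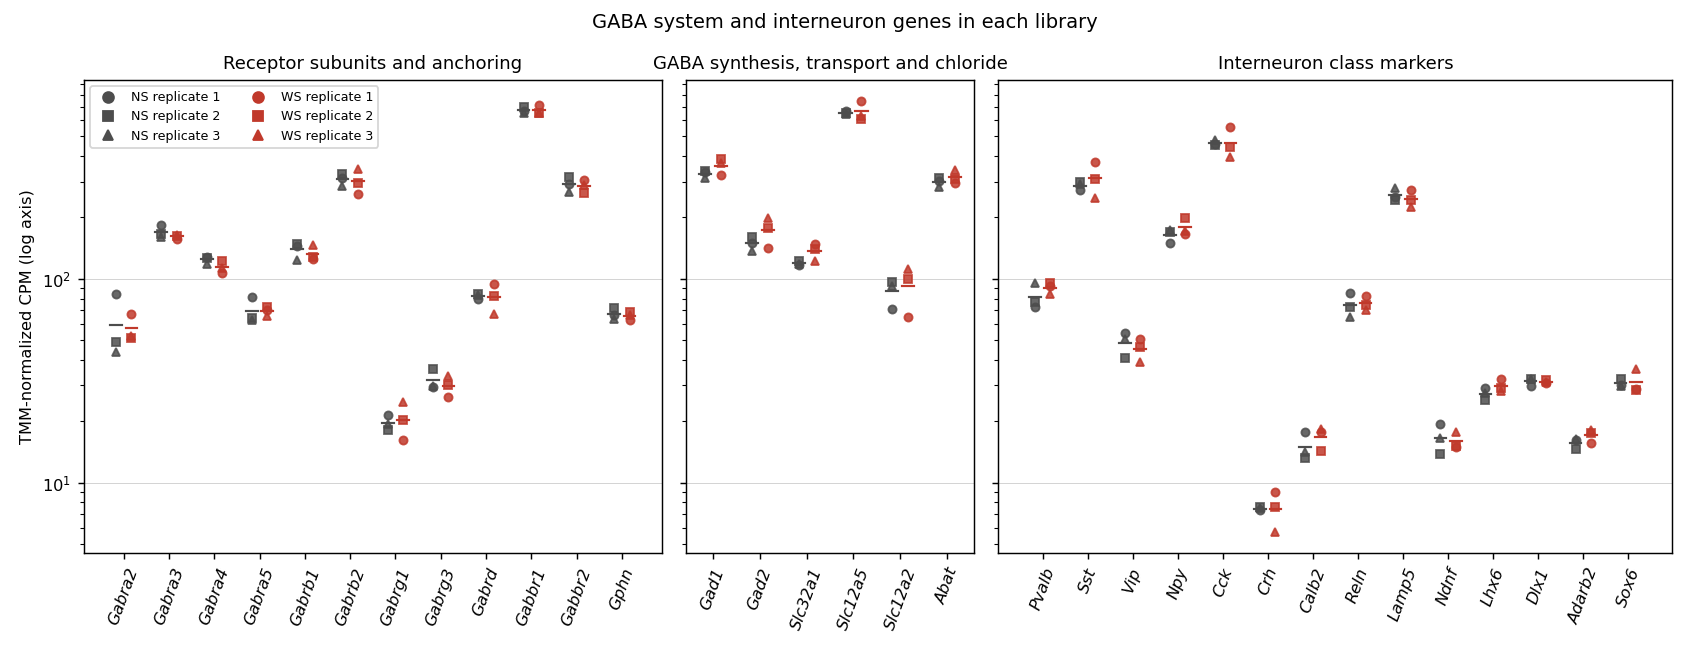
TMM-normalized CPM on a log axis (y axis) of each gene (x axis) in each library, NS in grey and WS in red, with a marker shape for each replicate number and a short line at the group mean. For every gene the 3 WS values overlap the 3 NS values, and replicate 1 (circles) stands apart for Gabra2 and Slc12a2 in both groups.

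The alpha subunits set the affinity and place of the receptor, and those measured were Gabra2 to Gabra5. Gabra2 had 84.7, 49.1 and 43.7 CPM in NS and 67.5, 51.2 and 52.5 in WS. Both replicate 1 libraries were well above the other 4, and NS replicate 1 was 1.94 times NS replicate 3. This gave the widest interval of the list, with a log2 fold change of -0.05 (SE 0.21). Without NS replicate 1 the log2 fold change was 0.30 and passed an unadjusted p under 0.05 in edgeR, and without NS replicate 3 it was -0.23. It was also just above 0 without WS replicate 2 (0.0153) or WS replicate 3 (0.006), so Gabra2 had no settled direction. Leaving out 1 library splits a same-numbered pair. With all 6 libraries and the block on replicate number the log2 fold change was -0.0061 (unadjusted p of 0.955 in edgeR).

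Gabra4, an alpha subunit that pairs with delta in receptors outside the synapse, had 129, 127 and 119 CPM in NS and 107, 122.8 and 113 in WS. It was lower in each of the 3 same-numbered pairs, but WS replicate 2 remained within the NS range. The log2 fold change of -0.13 (SE 0.08, 95% interval -0.30 to 0.05) was the lowest of the 32 genes. Gabra3 had 184, 166 and 161 CPM in NS and 157, 163 and 165 in WS, a log2 fold change of -0.08 (SE 0.08). Gabra5, known for tonic inhibition, had 81.1, 64.3 and 63.0 CPM in NS and 70.6, 73.0 and 65.4 in WS. Its means were 69.5 ± 10.1 and 69.7 ± 3.86 (SD over the 3 libraries), a difference far smaller than the replicate spread.

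The beta subunits are needed to form the GABA site of the receptor. Gabrb2 was the most abundant GABA-A subunit of the list per kilobase. It had 314, 327 and 285 CPM in NS and 262, 296 and 345 in WS, with WS replicates 1 and 3 at opposite ends of the 6 libraries. The log2 fold change was -0.04 (SE 0.10). Gabrb1 had 146, 148 and 124 CPM in NS and 125, 127 and 147 in WS, a log2 fold change of -0.07 (SE 0.09).

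The gamma subunits link the receptor to the synapse, and delta takes their place in extrasynaptic receptors. Gabrg1, a gamma subunit known from glia as well as neurons, had 21.4, 18.2 and 19.4 CPM in NS and 16.1, 20.3 and 24.8 in WS. WS replicate 3 was the highest and WS replicate 1 the lowest of the 6. Gabrg3 had 29.4, 36.2 and 29.9 CPM in NS and 26.3, 30.1 and 33.2 in WS, with overlapping groups. Gabrd had 79.6, 84.4 and 83.2 CPM in NS and 94.3, 81.9 and 67.4 in WS, so that WS replicates 1 and 3 lay outside the NS range on opposite sides. The log2 fold changes of Gabrg1, Gabrg3 and Gabrd were 0.05, -0.09 and -0.02 (SEs 0.14, 0.12 and 0.11).

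The genes Gabrg1, Gabra2, Gabra4 and Gabrb1 form the GABA-A cluster of mouse chromosome 5 in GENCODE M21 on GRCm38. Gabrg1 lies at 70751047 to 70842617 (minus), Gabra2 at 70957597 to 71095849 (minus), Gabra4 at 71569749 to 71658308 (minus) and Gabrb1 at 71658113 to 72149037 (plus). Gabra4 and Gabrb1 start head to head and overlap at their starts, so reads there could have been counted for either gene if strand was not used. Gabra2 and Gabra4 were highest in NS replicate 1, Gabrb1 in NS replicate 2 and Gabrg1 in WS replicate 3, while Gabra4 and Gabrg1 were lowest in WS replicate 1 and Gabra2 and Gabrb1 in NS replicate 3.

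Gabbr1 and Gabbr2 encode the subunits that GABA-B receptors need together, the first binding GABA and the second coupling to the G protein. Gabbr1 had 669, 696 and 653 CPM in NS and 709.8, 653 and 649 in WS, a log2 fold change of -0.0039 (SE 0.08). Gabbr2 had 293, 317 and 267 CPM in NS and 307, 262 and 287 in WS, a log2 fold change of -0.03 (SE 0.09). The Gabbr1 to Gabbr2 ratio per kilobase was 1.99 ± 0.113 in NS against 2.03 ± 0.103 for WS (SD over the 3 libraries), within the spread. Gphn encodes gephyrin, the scaffold that anchors GABA-A and glycine receptors at inhibitory synapses, and it had 67.4 ± 4.30 CPM on average in NS against 65.9 ± 2.95 for WS (SD over the 3 libraries). Its log2 fold change was -0.03 (SE 0.08), within the spread between libraries.

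Pvalb marks the fast-spiking basket cells that receive strong thalamic input. It had 73.1, 76.9 and 95.4 CPM in NS and 91.8, 95.1 and 84.1 in WS. The 3 WS libraries lay between the lowest and highest NS values, with NS replicate 3 the highest of all. The log2 fold change was 0.14 (SE 0.10, 95% interval -0.08 to 0.37), and without NS replicate 3 it was 0.27 and passed an unadjusted p under 0.05 in edgeR, while without NS replicate 1 it was 0.07 and without WS replicate 2 it was 0.10.

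Sst marks the cells that inhibit dendrites, many of them Martinotti cells. It had 272, 298 and 290.3 CPM in NS and 373, 309 and 249.98 in WS. WS replicate 1 was the highest and WS replicate 3 the lowest of the 6, a range of 1.49 times within WS against 1.09 times within NS. The log2 fold change of 0.11 (SE 0.12) became 0.25 without WS replicate 3, where it passed an unadjusted p under 0.05 in edgeR, and -0.04 without WS replicate 1. The sign of the Sst difference thus turned on which WS library was left out.

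Vip marks cells that inhibit other interneurons, in the main the Sst class. It had 54.4, 40.9 and 50.5 CPM in NS and 50.9, 46.1 and 39.2 in WS, with overlapping groups and a log2 fold change of -0.10 (SE 0.12, 95% interval -0.37 to 0.17). Calb2, which encodes calretinin and marks part of the Vip class, had 17.7, 13.2 and 14.2 CPM in NS and 17.7, 14.2 and 18.3 in WS. Its log2 fold change was 0.16 (SE 0.14), the other way from Vip. Each was within its spread between libraries. The Sst to Pvalb ratio per kilobase was 5.13 ± 0.643 in NS and 4.95 ± 0.825 in WS, and the Sst to Vip ratio was 28.4 ± 5.48 and 32.1 ± 2.32 (SD over the 3 libraries), so the ratios of the class markers differed by less than the SD of the NS libraries.

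Npy, made by many Sst and Lamp5 cells, had 149.5, 169 and 174 CPM in NS and 166, 199 and 172 in WS, with WS replicate 2 the highest. Its log2 fold change was 0.12 (SE 0.09). Cck, made by a class of basket cells and also at high level by excitatory neurons, had 459.8, 454 and 481 CPM in NS and 558, 442 and 398 in WS. Crh, the stress peptide that some cortical Vip and Sst cells make, was the least abundant gene by CPM, with 116, 121 and 121 counts in NS and 91 to 152 in WS. Like Sst, both Cck and Crh were highest in WS replicate 1 and lowest in WS replicate 3. Their log2 fold changes were 0.0034 (SE 0.11) and 0.0008 (SE 0.17), since the outer WS libraries balanced each other around a tight NS group.

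Lamp5, a marker of neurogliaform cells, had 253, 244 and 281 CPM in NS and 274, 243 and 225 in WS, a log2 fold change of -0.07 (SE 0.09). Ndnf, which marks interneurons of layer I, had 16.5 ± 2.72 CPM on average in NS against 15.9 ± 1.47 for WS (SD over the 3 libraries). Reln, the secreted glycoprotein of layer I cells and of several interneuron types, had 84.9, 72.8 and 65.1 CPM in NS and 82.3, 74.5 and 70.4 in WS. Replicate 1 was again the highest in both groups, and the log2 fold change was 0.03 (SE 0.10).

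Lhx6 and Sox6 mark interneurons from the medial ganglionic eminence, Adarb2 those from the caudal one, and Dlx1 is shared by both. Dlx1 was among the steadiest of the 32 genes, with 31.4 ± 1.35 CPM on average in NS against 31.3 ± 0.555 for WS (SD over the 3 libraries) and a log2 fold change of -0.0080 (SE 0.09, 95% interval -0.20 to 0.19). Lhx6 had 29.1, 25.4 and 27.5 CPM in NS and 32.3, 29.3 and 28.2 in WS. It was the only gene besides Slc32a1 to be higher in each of the 3 same-numbered pairs, with a log2 fold change of 0.13 (SE 0.10, 95% interval -0.09 to 0.35). Adarb2 had 16.2, 14.7 and 16.3 CPM in NS and 15.7, 17.4 and 18.2 in WS, and Sox6 had 29.6 to 32.1 and 28.5 to 36.1, so both overlapped. Adarb2 and Sox6 had log2 fold changes of 0.12 and 0.02 (SEs 0.11 and 0.11). No lineage marker thus left the spread between replicates, and Dlx1 had the narrowest interval of the 4. Dlx1 and Gad1 each overlap an antisense gene (Dlx1as and Gad1os).

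**Figure D3:**
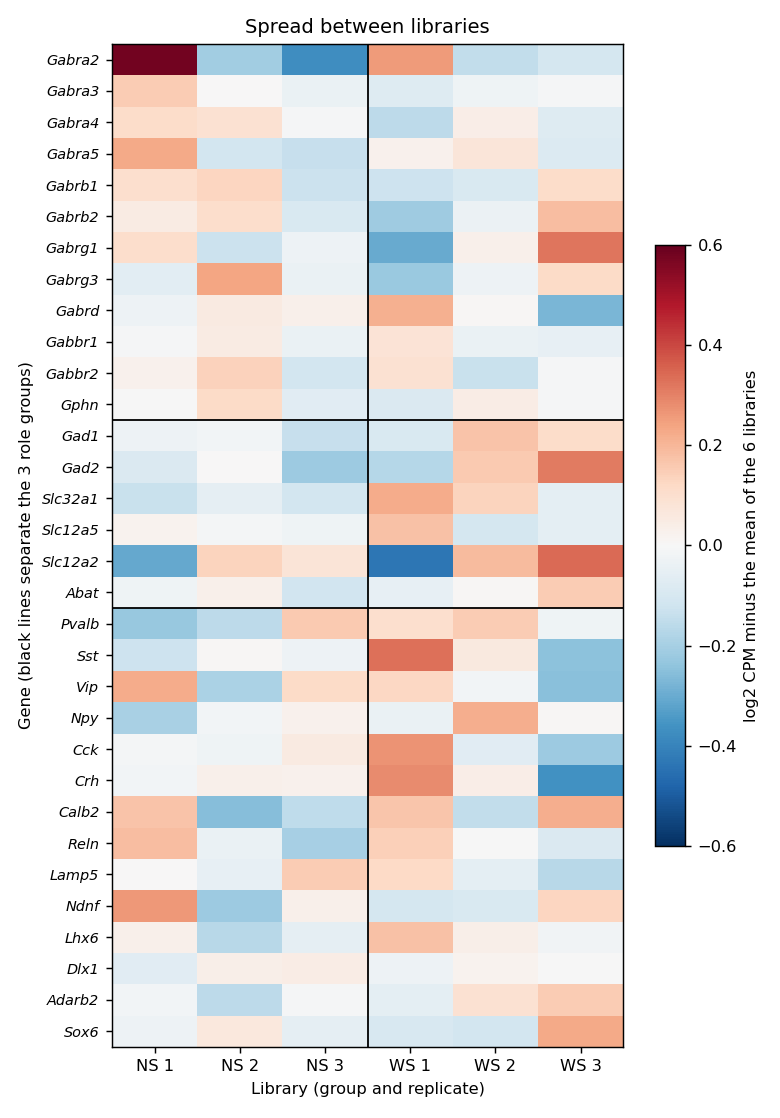
Log2 CPM of each gene (rows) in each library (columns) minus that gene's mean over the 6 libraries, red above and blue below, with black lines between the role groups and between NS and WS. The strongest colours are in WS replicates 1 and 3 and in Gabra2 of NS replicate 1, not in all libraries of a group.

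How the genes varied among libraries was described after the values were seen. The median coefficient of variation was 6.96% within NS and 9.65% within WS over the 32 genes, against 7.15% and 10.1% over all genes tested, so the wider WS spread was shared by the transcriptome. WS replicate 1 was the highest and WS replicate 3 the lowest library for 5 of the 32 (Gabrd, Gabbr1, Sst, Cck and Crh), against 11.6% of all genes, and the reverse held for 3 (Gabrb2, Gabrg1 and Slc12a2), against 11.3%. Both replicate 1 libraries were the highest for 4 (Gabra2, Slc12a5, Vip and Reln), against 8.66% of all genes, and the lowest for 4 (Gabrg3, Slc12a2, Npy and Dlx1), against 10.3%. These shares are near those of all genes and are not a result about the GABA system.

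Levels per kilobase of annotated exon (GENCODE M21, all exons of a gene merged) were compared between genes. In NS the order was led by Sst with 398 ± 18.3 CPM per kb, Cck with 356 ± 10.7 and Npy with 290.1 ± 22.9 (SD over the 3 libraries), and the NS ranges of these 3 did not overlap. Lamp5, Slc12a5 and Gabbr1 followed at 88.4, 87.9 and 86.6 and could not be ordered, since their NS ranges overlapped, and Pvalb was next at 78.6 with a range that overlapped that of Gabbr1. Among GABA-A subunits, Gabrb2 (48.5 ± 3.34) and Gabra3 (43.4 ± 3.05) overlapped, followed by Gabrd (28.7), Gabra5 (23.4), Gabra4 (20.5), Gabrb1 (10.1), Gabra2 (7.74), Gabrg3 (2.67) and Gabrg1 (2.498). The ranges of Gabrb1 and Gabra2 overlapped, as did those of Gabrg3 and Gabrg1. The lineage markers were low, from 5.83 for Dlx1 and 5.69 for Lhx6 down to 2.07 for Sox6 and 1.198 for Adarb2. In WS the same 3 peptides led, with 431 ± 85.6 for Sst, 357 ± 63.4 for Cck and 316 ± 30.3 for Npy (SD over the 3 libraries), and their ranges then overlapped.

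**Figure D4:**
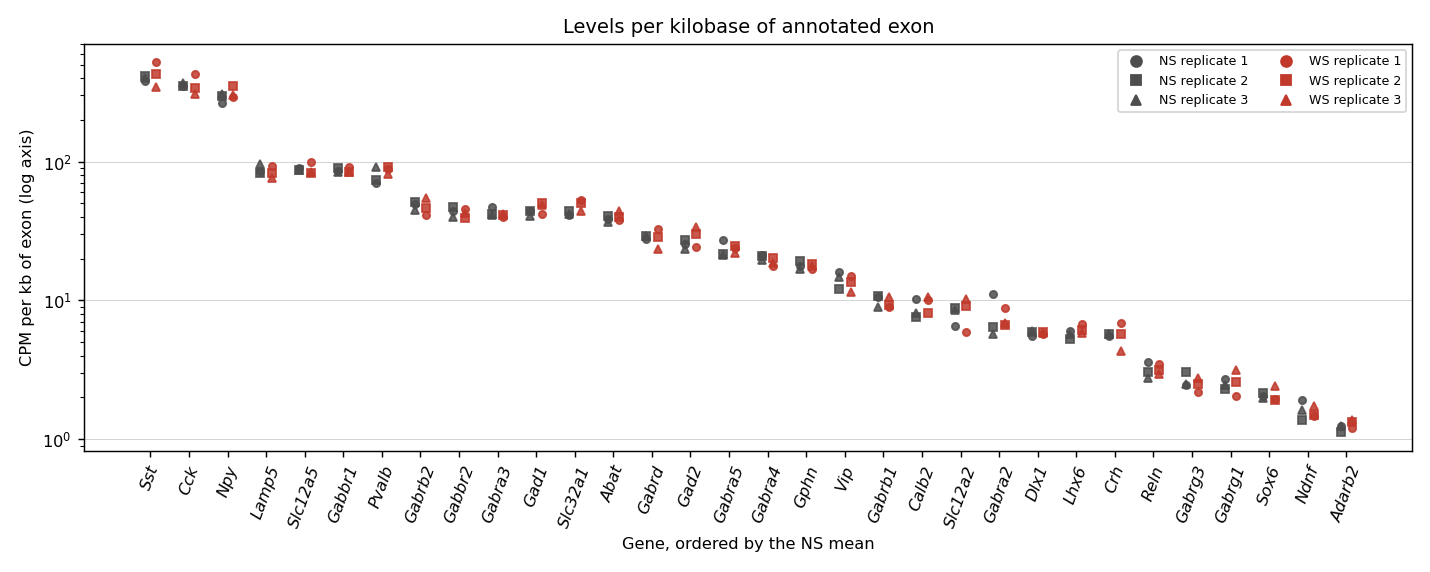
CPM per kilobase of annotated exon on a log axis (y axis) for the 32 genes (x axis, ordered by the NS mean), NS in grey and WS in red with a marker shape for each replicate number. Sst, Cck and Npy stand above the rest, and the order from Sst down to Adarb2 is nearly the same in both groups.

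Other genes of GABA signalling, from a list of 41 that held further subunits, GABA reuptake transporters, anchoring and trafficking proteins and GABA breakdown enzymes, were counted in the same way. Of these, 36 were in the table and 34 were tested, with 0 called in either direction, 19 above 0 and 15 below, and a median log2 fold change of 0.0031. At an unadjusted p under 0.05, 2 were higher, against 0.866% of all genes, and 0 lower, against 0.327%. The first was Slc6a11, which encodes GAT3, the GABA transporter of astrocytes. It had 162, 171 and 173 CPM in NS and 206, 174 and 259.9 in WS, a log2 fold change of 0.34 (SE 0.12, unadjusted p = 0.0159 and adjusted p = 0.9998 by edgeR, Benjamini-Hochberg). Every WS value was above every NS value, though WS replicate 2 by little. Of the astrocyte markers, 9 of 9 were above 0 and 0 passed an unadjusted p under 0.05, with a summed level of 4565 to 4907 CPM in NS and 4627 to 5702 in WS, highest in WS replicate 3, and its part in the Slc6a11 values was not tested. The other was Slc6a12, the betaine and GABA transporter, at 0.757, 0.874 and 0.683 CPM in NS and 1.54, 1.18 and 1.26 in WS, with an unadjusted p of 0.0222 and an adjusted p of 0.9998 in the same test.

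A further list of 30 genes of interneuron identity and function was counted likewise. All 30 were in the table, 29 were tested, 0 were called, and 0 passed an unadjusted p under 0.05 in either direction. The log2 fold changes had a median of 0.08, with 22 above 0 and 7 below. In 1 of the 29, Dlx5, named after its value was seen, every WS library was above every NS library (log2 fold change 0.31, 95% interval -0.06 to 0.68), against 3.11% of all genes, so this is not a result about the list.

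The tissue was checked by markers of other cells. All 10 markers of cortical excitatory neurons were present in every library, with a summed level of 3014 to 3182 CPM in NS and of 3394, 3076 and 2692 in WS replicates 1, 2 and 3. Most of this sum was Slc17a7, the vesicular glutamate transporter, with 2545, 2266 and 1912 CPM in WS, while Rorb and Foxp2 were not highest in WS replicate 1. The summed level of the interneuron markers had the same order over the WS libraries, at 1746, 1551 and 1394 CPM, against 1495 to 1580 in NS, with Cck and Sst its most abundant genes, and the part of tissue composition in it was not tested. The summed level of the 6 genes of synthesis, transport and chloride was 1638 ± 48.5 CPM on average in NS against 1739 ± 31.4 for WS (SD over the 3 libraries), with the 3 WS libraries above the 3 NS libraries. None of the 6 genes separated the groups on its own, and different genes carried the sum. In WS replicate 1 Slc12a5 and Slc32a1 were above the NS libraries, while in WS replicate 3 Gad1, Gad2, Slc12a2 and Abat were above them and Slc12a5 was below. In WS replicate 2 Gad1, Gad2, Slc32a1 and Slc12a2 were above the NS libraries, and Slc12a5, the most abundant gene of the sum, was below. The microglial sum separated the groups likewise, at 478 to 500 CPM in NS and 506 to 520 in WS. Such sums carry no test.

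Striatal projection neurons also make GABA and express Gad1, Gad2 and Slc32a1. The 10 striatal markers, none at 0 in any library, summed to 309, 417 and 423 CPM in NS and to 322, 640.4 and 300.5 in WS, so that WS replicate 2 stood above the other 5. Gad1 was highest in that library, while Gad2 was highest in WS replicate 3 and Slc32a1 in WS replicate 1, where the striatal sum was low. Without WS replicate 2 the log2 fold changes were 0.07 for Gad1, 0.18 for Gad2 and 0.18 for Slc32a1, against 0.13, 0.21 and 0.20 with it. All 10 striatal markers were above 0, with a median log2 fold change of 0.35, and 0 passed an unadjusted p under 0.05. Without WS replicate 2, a setting added for this list after its values were seen, all 10 were below 0, with a median of -0.36, and 5 were lower at an unadjusted p under 0.05. Without NS replicate 1, 7 of the 10 were above 0, with a median of 0.18. Under the replicate block 8 of the 10 were above 0, with a median of 0.24. At an unadjusted p under 0.05 in edgeR, 2 were higher under the block, 2 without WS replicate 1 and 3 without WS replicate 3. Over all genes those settings had 190, 315 and 319 higher, and 85 were lower without WS replicate 2. The part of striatal tissue in the Gad1, Gad2 and Slc32a1 values was not tested. Oligodendrocyte markers were above 0 in 10 of 10 genes, with sums of 8392 to 12072 CPM in NS and 9975 to 13363 in WS. Microglial, endothelial, thalamic, oligodendrocyte precursor and choroid plexus markers had median log2 fold changes of 0.10, 0.11, 0.12, 0.07 and -0.15. Among them, Pecam1 of endothelium and Zfhx3 of the thalamic list were higher at an unadjusted p under 0.05, with log2 fold changes of 0.87 and 0.67, and neither was called. Of 10 early genes of neuronal activity, 3 were higher at an unadjusted p under 0.05 (Fos, Arc and Egr4), against 0.866% of all genes, and 0 were called. The other 7 were below 0, none at an unadjusted p under 0.05, and the median log2 fold change of the 10 was -0.01.

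**Figure D5:**
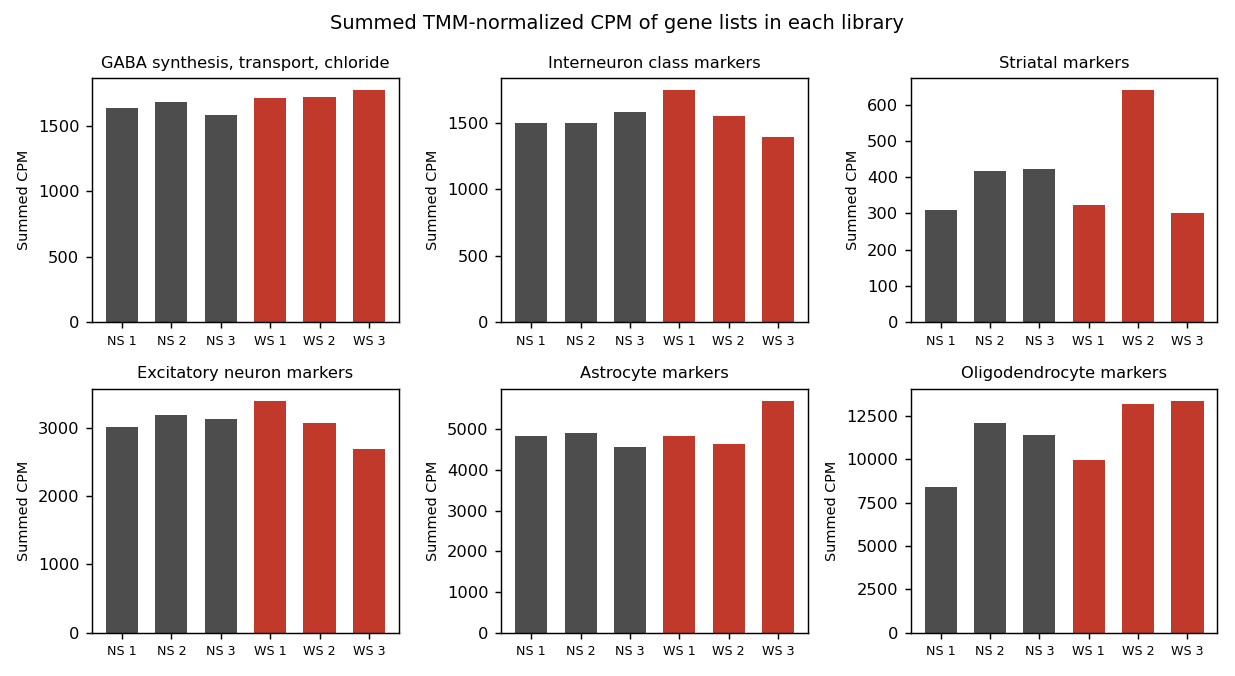
Summed TMM-normalized CPM (y axis, from 0) of 6 gene lists in each library (x axis), NS in grey and WS in red, 1 bar per library and no error bar. The WS bars of the synthesis, transport and chloride list lie above the NS bars, the interneuron and excitatory sums are highest in WS replicate 1 and lowest in WS replicate 3, and the striatal sum is highest in WS replicate 2.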

How the data were processed

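S1 cortex was sequenced in 6 libraries, 3 NS and 3 WS. Reads of rRNA or low quality were discarded and the rest aligned with HISAT2 by the authors, whose methods also name FPKM and DESeq2 and whose processing notes name mm10, while the counting tool and its use of strand are not given in the sources used here. For each gene the authors deposited an estimated count averaged over all 6 libraries, its SD (a signal never negative), and a z-score per library. The authors also deposited a log2 fold change column and an FDR score, a p-value and a −log10 p-value of their own comparison, which were not used, like a second table of the same kind. Counts were computed back as mean plus z-score times SD and rounded. In the 13418 of 14824 genes with under 0.1 count of rounding uncertainty, 88.5% of values were whole numbers within that uncertainty, against 4.53% by chance. The design had allowed for counts, where the files hold z-scores, and the count test was applied to these.

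edgeR 4.0.16 (TMM, filterByExpr, quasi-likelihood test, Benjamini-Hochberg over 13747 genes) in R 4.3.3 was used, with DESeq2 1.42.0 as an alternative. Genes were called past 1 log2 unit in either direction at an adjusted p under 0.05. Standard errors are the log2 fold change divided by the root of F, and intervals use the test's degrees of freedom. Both come from the fit without a block, and the fits with 1 library left out carry no block either. The fitting code was tested on simulated data. No 2 libraries agreed within sampling noise (chi-square per degree of freedom at least 4.49, where noise gives 1), so none was taken as a repeat of another. Each was counted as 1 replicate, though this check cannot show that libraries came from separate animals. Labels do not say that samples came from separate animals, so p-values measure the spread between these samples. Same-numbered NS and WS libraries deviated together from their group means (r = 0.341, 0.23 and 0.13 across 13688 genes, which are not independent), so the numbers were taken to pair the samples, and the blocked value is printed where it changes a call.

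By the naming rule all 33 genes are named, and a gene of another list where it was called, passed an unadjusted p under 0.05 or bears on a result, with exceptions stated in the text. The genes and lists were chosen with earlier results of these data known. Depth was the total count over listed genes, 15660395 to 17276168, and counting error falls as counts rise. Promoters came from RefSeq and exon lengths and positions from GENCODE M21 on GRCm38. Some results of the other lists are not reported here.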

Additional observations from a re-analysis of the deposited data

How the results depend on the processing

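The counts of 0 genes called higher and 0 called lower held under other normalizations (DESeq2's size factors, upper quartile), DESeq2's own test, the block on replicate number, no low-count filter, leaving out each library in turn, and an adjusted p with no limit on the fold. The count of 1 gene higher at an unadjusted p under 0.05 was 0 under the replicate block and ranged from 0 to 3 with 1 library left out. It was 0 without NS replicate 2 or WS replicate 2, 1 without NS replicate 1 (Gabra2) or NS replicate 3 (Pvalb), 2 without WS replicate 3 (Slc32a1 and Sst) and 3 without WS replicate 1 (Gad1, Gad2 and Slc12a2). Over all genes 119 were higher with all libraries, 190 under the replicate block, 160 and 120 in the first pair of settings, 90 and 125 in the next, 319 without WS replicate 3 and 315 without WS replicate 1. The counts of genes with every WS library above, or below, every NS library were 0 with all libraries and ranged from 0 to 5 and from 0 to 3 with 1 left out. Both were highest without WS replicate 1, where 8.83% of all genes lay above and 8.46% below. The median log2 fold change of the 32 genes, 0.0036, ranged from -0.0063 to 0.0208. Of 352 gene values under alternatives, 43 changed sign, and 14 of the 32 genes kept their sign throughout. Non-overlap was not recomputed for DESeq2 or the block, which do not enter it.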
